A study of Homo sapiens with 18 samples.

Results

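T, EOMES, TBX3, MIXL1 and GSC are 5 genes that encode transcription factors of the primitive streak and of the mesoderm and endoderm that leave it. They were taken by name. All 5 are in the deposited table of 10975 genes of the first WT series and in the table of 497 genes that also covers SP5 mutant cells. T, EOMES and TBX3 are members of the T-box family, whose shared domain binds DNA. MIXL1 and GSC carry a homeodomain of the paired class. In the embryo these genes are switched on in the streak under WNT and NODAL signals. T (brachyury) is known for its role in posterior mesoderm, EOMES for its role in definitive endoderm and early mesoderm, MIXL1 for the choice between endoderm and mesoderm, and GSC as a marker of the organizer region. TBX3 acts in endoderm, limb and heart, and in the self-renewal of mouse stem cells.

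The cells were H1, an established human embryonic stem cell line. RNA-Seq covered 16 libraries, 1 for each of 4 series at 0, 12, 24 and 48 h of 1 nM Wnt3a, a purified WNT protein. Cells at 0 h had WNT storage buffer in place of the protein. The series are the first WT series, a second one named WT Rep. 2, and the clones dZF1 and dZF2. In both clones CRISPR-Cas9 deleted the coding sequence of the zinc fingers of SP5, a DNA-binding factor whose own gene responds to WNT, on both alleles. Each mutant series is 1 clone. With 1 library per line and time no group has a replicate inside its table and no test was run. The spread is that between series or between the 2 clones. SP5 ChIP-Seq peaks were deposited as 2 lists, labelled as H1 cells without Wnt3a and with Wnt3a for 24 h. The header of each list instead names 1 and the same ChIP library, from Wnt3a-treated cells and named for H9, a different human embryonic stem line. The lists differ in the control library, which was from buffer-treated cells for the first and from Wnt3a-treated cells for the second. They are therefore called the list with the buffer control and the list with the Wnt3a control, and they cannot show whether binding changed with Wnt3a.

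Before treatment the pluripotency genes were high in the first WT series, with POU5F1 at 294.6 RPKM, SOX2 at 238.3 RPKM and LIN28A at 1014.1 RPKM. RPKM is a read count scaled to the length of the transcript and to the mapped reads of the library. NANOG was only 3.3 RPKM and UTF1, another of the 12 pluripotency markers checked, is not listed. Of 9 trophectoderm and amnion markers 1 is listed, TFAP2C, at 2 to 4.5 RPKM. The read depth is unknown for the RNA-Seq tables. SP5 RNA itself was 0.09, 0.90 and 0.75 at 24 h, in units of its highest level in WT Rep. 2, for WT Rep. 2, dZF1 and dZF2. The deletion does not remove the whole transcript, so these values do not check the labels of the clones. In bulk RNA fewer cells of a type and less RNA per cell cannot be told apart.

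The SP5 peaks near these genes are shown first, because the members differ most plainly there. A peak was counted as near when its summit lay within 100000 bases of the start of the gene. In the list with the buffer control 3 of the 5 genes had one (T, MIXL1 and GSC), against 6.05% of 20163 protein-coding genes. In the list with the Wnt3a control 2 of the 5 did (T and MIXL1), against 6.59%. The peaks of MIXL1 and T were found in both lists. With a distance of 50000 bases T dropped out, which left 2 genes in the list with the buffer control and 1 in the other.

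The MIXL1 peak lay at the promoter. MIXL1 occupies chr1:226411319-226414761 on the plus strand (GRCh37, the same coordinates as hg19), and the peak spanned chr1:226410325-226411482 with its summit 152 bases upstream of the start. It held 95 tags in both lists. Its score, the p-value of the peak caller on a negative log scale, was the highest of all 540 peaks in the list with the Wnt3a control, at 504.89, and ranked 4 of 542 in the other, at 398.87. The fold over the control was 24.37 and 18.08, and the false discovery rate of the caller was 0% in both.

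The T peak lay far from the gene. T, named TBXT in current annotation, occupies chr6:166571144-166582188 on the minus strand, and the summit of the peak at chr6:166666441-166667913 was 84636 bases upstream of it. The peak held 71 tags in both lists, with scores of 184.35 (rank 14, buffer control) and 146.88 (rank 24, Wnt3a control) and a false discovery rate of 0% in both. It lay in an intron of a long noncoding RNA gene, ENSG00000233365. The start of PRR18 was nearer to the summit than that of T, at 55112 bases, and SFT2D1 was nearly as close as T, at 89240 bases, so the peak cannot be given to 1 gene by distance.

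The GSC peak was weak. GSC occupies chr14:95234560-95236450 on the minus strand, and the peak at chr14:95236262-95237198 had its summit 337 bases upstream of the start, in an exon of the long noncoding RNA gene ENSG00000285205. It held 30 tags, had a score of 61.45 (rank 240 of 542) and a false discovery rate of 65.42%, and was called only with the buffer control. The median peak of that list had 25 tags and a false discovery rate of 69.6%, and 35 of the 542 peaks had a rate of 5% or less.

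EOMES (chr3:27757440-27764202, minus strand) and TBX3 (chr12:115108060-115121980, minus strand) had no peak nearby in either list. The closest summit to TBX3 was 784238 bases away in both. For EOMES it was 9507053 bases away with the buffer control and 5496224 bases with the Wnt3a control. The study itself, from a larger set of peaks, names TBX3 among its genes with an associated SP5 peak.

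SP5 belongs to a family whose zinc fingers bind GC-rich boxes. The hg19 plus-strand sequence around the 3 summits is therefore given, 300 bases each, for MIXL1 (chr1:226411017-226411316), T (chr6:166666674-166666973) and GSC (chr14:95236637-95236936). Capitals mark GGGCGG and GGGAGG, or their complements, on either strand.

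MIXL1: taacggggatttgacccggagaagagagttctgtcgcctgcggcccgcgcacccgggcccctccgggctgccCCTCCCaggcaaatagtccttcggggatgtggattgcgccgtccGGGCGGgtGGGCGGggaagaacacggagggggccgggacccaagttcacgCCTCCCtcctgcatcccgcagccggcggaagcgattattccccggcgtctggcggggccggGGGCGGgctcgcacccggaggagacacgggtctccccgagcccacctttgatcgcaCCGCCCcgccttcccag
T: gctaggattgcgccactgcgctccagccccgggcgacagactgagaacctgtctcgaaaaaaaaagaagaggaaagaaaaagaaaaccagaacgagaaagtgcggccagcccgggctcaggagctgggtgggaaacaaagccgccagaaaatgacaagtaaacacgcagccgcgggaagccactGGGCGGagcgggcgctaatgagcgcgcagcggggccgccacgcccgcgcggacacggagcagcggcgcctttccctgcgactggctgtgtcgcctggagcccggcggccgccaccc
GSC: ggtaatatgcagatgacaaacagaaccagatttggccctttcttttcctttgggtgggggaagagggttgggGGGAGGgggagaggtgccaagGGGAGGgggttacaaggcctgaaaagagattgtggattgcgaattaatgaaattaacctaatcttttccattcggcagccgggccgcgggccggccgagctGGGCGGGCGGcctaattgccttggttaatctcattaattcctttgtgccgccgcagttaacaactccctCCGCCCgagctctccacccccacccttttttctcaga

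The MIXL1 window held 4 copies of GGGCGG, the nearest 23 bases from the summit, and 2 of GGGAGG, the nearest 19 bases from it. It also held 1 CTTTGAT, the core of the site bound by TCF and LEF factors, in lower case near its end and 125 bases from the summit. The GSC window held 3 copies of GGGCGG, 2 of them overlapping, and 2 of GGGAGG. The T window held 1 GGGCGG and no GGGAGG. Among 539 peaks on the assembled chromosomes in the list with the Wnt3a control, 48.1% held at least 1 GGGCGG in such a window, 59.6% a GGGAGG and 6.31% a CTTTGAT. With the buffer control the shares were 40.6%, 61.4% and 6.12%. With GGGCGG 4 or more times, the MIXL1 window was 1 of 66 in the list with the Wnt3a control. The GC content was 71.3% for MIXL1 and 64.7% for T, against a median of 56% in that list, and 54.3% for GSC against 54.3%. Neither the T-box site AGGTGTGA nor the GSC and OTX site TAATCC was found in any of the 3 windows on either strand.

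EOMES had no peak nearby, and its promoter is given beside the 3 windows. Its 250 bases before the start in RefSeq are on the minus strand of GRCh38.p14 at chr3:27722324-27722573, a different build from the peaks, and are written 5′ to 3′ with the same capitals.

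EOMES: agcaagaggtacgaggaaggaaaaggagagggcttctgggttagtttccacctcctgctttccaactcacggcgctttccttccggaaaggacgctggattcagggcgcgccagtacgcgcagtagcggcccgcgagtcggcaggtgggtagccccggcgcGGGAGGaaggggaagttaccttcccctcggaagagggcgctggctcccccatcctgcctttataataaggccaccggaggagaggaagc

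This stretch held no GGGCGG and 1 GGGAGG. Of all 35116 RefSeq windows of 300 bases, which reach 50 bases past the start, 45% held GGGCGG, 49.3% GGGAGG and 2.62% CTTTGAT. The window of MIXL1 held 4, 2 and 1 of these. That of GSC held 2 GGGCGG and 3 GGGAGG. T has 2 RefSeq windows, without a peak in either list, which held 1 and 2 GGGCGG and 0 and 3 GGGAGG. RefSeq windows matched 4 of the 5 genes; TBX3 was not matched.

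All 5 genes were higher at 48 h of Wnt3a than at 0 h in the first WT series, with 3 shapes over time. EOMES was high at 24 and 48 h, T, MIXL1 and GSC were highest at 24 h, and TBX3 was above 0.1 RPKM only at 48 h. EOMES is listed at 0 RPKM at 0 h and was 34.8 RPKM at 12 h, 109.3 RPKM at 24 h and 139.8 RPKM at 48 h. MIXL1 is also listed at 0 RPKM at 0 h and was 68.6 RPKM at 12 h, 271.1 RPKM at 24 h and 76.4 RPKM at 48 h, so 48 h held 28.2% of the 24 h level. GSC was 0.5, 7.3, 57.8 and 27.2 RPKM at 0, 12, 24 and 48 h. T was 0.2, 5.8, 21.7 and 10.1 RPKM at the same times. Both GSC and T were a little over 2 times as high at 24 h as at 48 h (2.13 and 2.15). TBX3 was 0.1 RPKM at 0, 12 and 24 h and 12.2 RPKM at 48 h.

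**Figure D1:**
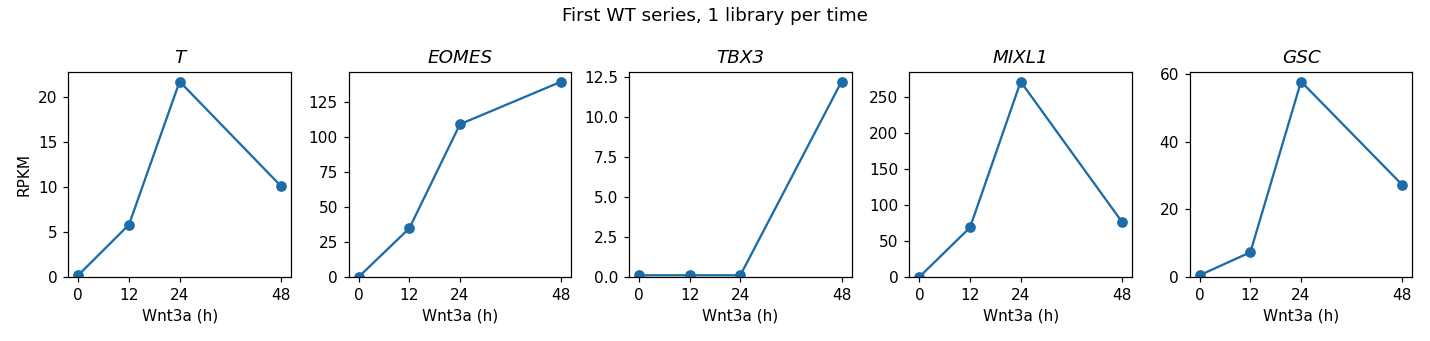
RPKM of each gene (vertical axis, own scale) against hours of Wnt3a (horizontal axis) in the first WT series, each point 1 library and no error bar possible. T, MIXL1 and GSC are highest at 24 h, at 21.7, 271.1 and 57.8 RPKM, while EOMES at 139.8 RPKM and TBX3 at 12.2 RPKM are highest at 48 h.

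The order of the levels also turned over. MIXL1 led at 12 and 24 h, followed by EOMES, GSC, T and TBX3. At 48 h EOMES led, MIXL1 was next, and TBX3 and T came last. At its highest the strongest of the 5, MIXL1, ranked 163 of 10975 genes by RPKM and T ranked 3964. With no replicate in this table, it cannot be said which neighbours in these orders differ beyond their spread.

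Changes were counted at 2-fold or more on the log2(RPKM + 1) scale, which understates the change of low genes. On it 4 of the 5 genes were higher than at 0 h at 12 h, when 1.22% of all listed genes were. At 24 h it was again 4 of the 5, against 2.62%, and at 48 h all 5, against 4.86%. The gene missing at 12 and 24 h was TBX3. The log2 change of T was 2.50, 4.24 and 3.21 at 12, 24 and 48 h, and that of GSC 2.47, 5.29 and 4.23. By size of change MIXL1 ranked 1 of 10975 genes at 12 h and 2 at 24 h, EOMES ranked 3 and 4, T 13 and 10, and GSC 15 and 6. TBX3 ranked 33 at 48 h. The table holds only genes that reached 4 RPKM in at least 1 library. All 5 genes were at 0.5 RPKM or less at 0 h, so they are listed only through Wnt3a libraries. A call at some time was therefore fixed in advance for them, and only its time and size were open. The shares cover genes of any 0 h level, so these counts and ranks do not measure an excess.

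In the second WT series T, EOMES, MIXL1 and GSC were further from their 48 h level at 24 h, while TBX3 was low until 48 h in both. WT Rep. 2 was deposited as a fraction of the highest level of each gene over its own 4 times, and all 5 genes reached that level at 48 h, where each is 1. At 24 h T was 0.34, TBX3 0.10, GSC 0.10, MIXL1 0.08 and EOMES 0.05. At 12 h T was 0.18, EOMES 0.03, and TBX3, MIXL1 and GSC are listed at 0. At 0 h TBX3 was 0.11 and the other 4 genes are listed at 0. The values are given to 2 decimals, so those under 0.1 carry at most 1 digit.

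The 24 h level as a percentage of the 48 h level within a series is free of the scaling of the tables. For MIXL1 it was 355% in the first WT series and 8% in WT Rep. 2. For GSC it was 213% and 10%, for T 215% and 34%, and for EOMES 78.2% and 5%. TBX3 was at 0.82% and 10%. The first 4 genes were thus far lower at 24 h, relative to 48 h, in the second series of the same line and treatment. The 2 WT series are only 1 library each at these times, and what differed between them was not tested.

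In the clones EOMES, MIXL1 and GSC were higher than in WT Rep. 2 at 24 h, T in 1 clone only, and TBX3 in neither. At 48 h EOMES and TBX3 were higher in both. The clone values are ratios to the highest WT Rep. 2 level, so that 1 is the WT Rep. 2 level at 48 h. All comparisons of clones with WT at a given time use the same single WT Rep. 2 library, and the clones are 2 lines against 1. Changes are on the log2(value + 0.05) scale, and called means 2-fold or more in both clones.

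**Figure D2:**
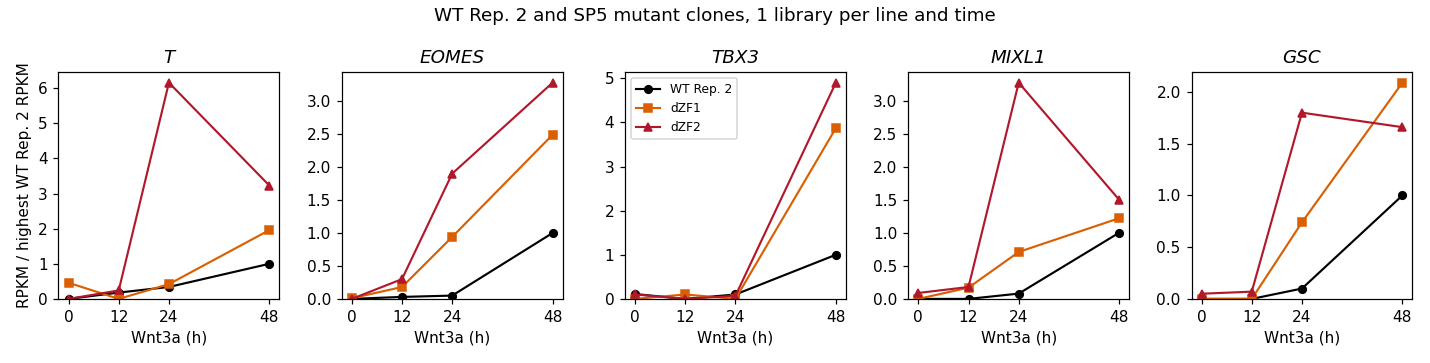
Level of each gene (vertical axis, RPKM divided by the highest WT Rep. 2 RPKM, own scale) against hours of Wnt3a (horizontal axis), with 1 point per library for WT Rep. 2 (black circles), dZF1 (orange squares) and dZF2 (red triangles). T in dZF2 reaches 6.16 at 24 h while T in dZF1 stays at 0.42, next to 0.34 in WT Rep. 2.

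EOMES was higher in both clones from 12 h on. It was 0.18 in dZF1 and 0.30 in dZF2 at 12 h against 0.03 in WT Rep. 2, then 0.94 and 1.90 against 0.05 at 24 h, and 2.49 and 3.28 against 1 at 48 h. The log2 ratios to WT Rep. 2 were 3.31 in dZF1 and 4.29 in dZF2 at 24 h, a mean of 3.80 ± 0.69 (SD, n = 2 clones), and 1.27 and 1.67 at 48 h, a mean of 1.47 ± 0.28 (SD, n = 2 clones). The WT Rep. 2 value at 24 h equals the pseudocount of 0.05, so the size of the 24 h ratio depends on it. The mean at 24 h was 4.49 with a pseudocount of 0.01 and 2.63 with 0.2. At 24 h EOMES ranked 7 of 497 genes in each clone.

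MIXL1 was higher early and close to WT late. At 12 h it was 0.17 in dZF1 and 0.18 in dZF2 and is listed at 0 in WT Rep. 2. At 24 h it was 0.71 and 3.27 against 0.08, and at 48 h 1.22 and 1.5 against 1. The log2 ratio at 24 h was 2.55 in dZF1 and 4.67 in dZF2 (mean 3.61 ± 1.5, SD, n = 2 clones), and at 48 h 0.27 and 0.56 (mean 0.42 ± 0.20, SD, n = 2 clones). The ratio of MIXL1 at 48 h was the smallest of the 5 genes in both clones. At 24 h its ratio ranked 13 of 497 genes in dZF1 and 3 in dZF2, where it was the largest of the 5.

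GSC is listed at 0 in WT Rep. 2 and dZF1 at 12 h and was 0.07 in dZF2. At 24 h it was 0.74 in dZF1 and 1.80 in dZF2 against 0.10, with log2 ratios of 2.40 and 3.62 (mean 3.01 ± 0.87, SD, n = 2 clones). At 48 h it was 2.09 and 1.66 against 1, and only the ratio of dZF1, 1.03, reached 2-fold, with 0.70 in dZF2.

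T separated the clones. At 24 h it was 6.16 in dZF2, the highest value of any of the 5 genes in this table, and 0.42 in dZF1 against 0.34 in WT Rep. 2. The log2 ratio was 3.99 in dZF2 and 0.27 in dZF1, so the mean of 2.13 had an SD of 2.63 (n = 2 clones), larger than the mean itself. At 48 h T was 1.96 and 3.23 against 1, with ratios of 0.94 and 1.64. In dZF1 T was already 0.46 at 0 h, then listed at 0 at 12 h, whereas it is listed at 0 at 0 h in WT Rep. 2 and dZF2.

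TBX3 stayed low through 24 h in all 3 lines, between 0 and 0.11. At 48 h it was 3.87 in dZF1 and 4.90 in dZF2 against 1, with log2 ratios of 1.90 and 2.24 (mean 2.07 ± 0.24, SD, n = 2 clones), and it ranked 2 and 4 of 497 genes. At 24 h it is listed at 0 in dZF1 and was 0.07 in dZF2 against 0.10.

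**Figure D3:**
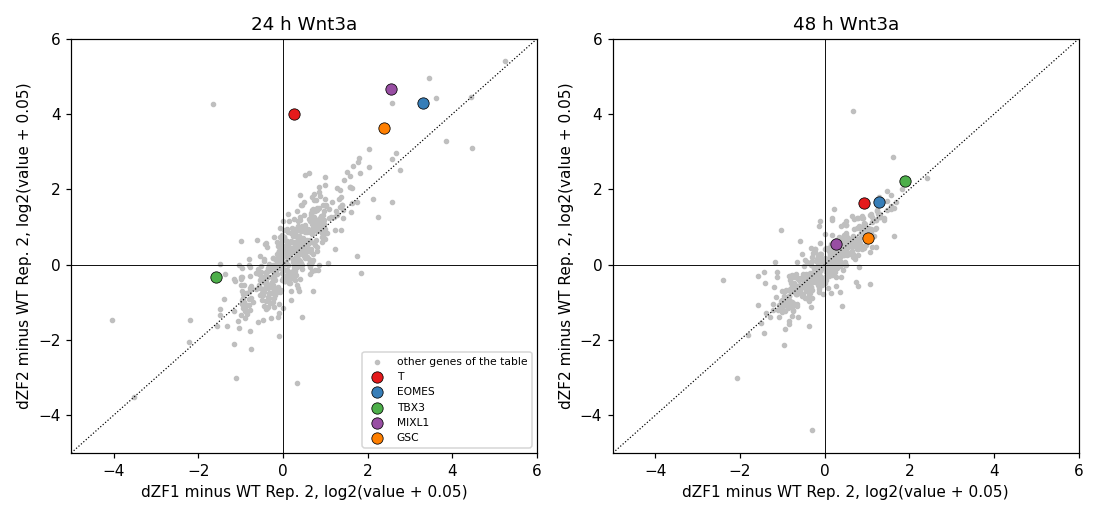
Log2 ratio to WT Rep. 2 in dZF1 (horizontal axis) against that in dZF2 (vertical axis), on the log2(value + 0.05) scale, at 24 h (left) and 48 h (right), with the 5 genes coloured, the other genes of the table in grey and a dotted line of equality. At 24 h EOMES, MIXL1 and GSC lie far to the upper right and T lies high only for dZF2; at 48 h these 4 genes lie nearer to the main cloud, while TBX3, at -1.58 and -0.32 at 24 h, lies at 1.90 and 2.24.

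By count, 3 of the 5 genes were called higher in both clones at 24 h, against 10.5% of the 497 genes, and 2 of the 5 at 48 h, against 6.24%. At 12 h it was 2 (EOMES and MIXL1), against 3.42%, which rests on values of 0.30 or less. At 0 h none was higher in both clones, against 2.21%, and none lower, against 2.82%. The median log2 ratio over the 5 genes at 24 h was 2.40 in dZF1 and 3.99 in dZF2, beside 0.21 and 0.27 over all 497 genes. At 48 h it was 1.03 and 1.64, beside 0.09 and 0.06. When each series was first set relative to its own 0 h value, the mean log2 ratio at 48 h turned from 1.29 to -0.39 for T and from 0.42 to -0.32 for MIXL1. It also moved from 0.87 to 0.37 for GSC and from 2.07 to 2.95 for TBX3, and at 24 h from 2.13 to 0.46 for T. The turns in sign rest on 1 library at 0 h for each gene. At 0 h T was 0.46 in dZF1 and MIXL1 was 0.09 in dZF2. Both are listed at 0 at 0 h in the other clone and in WT Rep. 2. The 497 genes were taken by the study from those that responded to Wnt3a in WT cells, so they are not all genes.

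The clones also differed from each other at 24 h. T was 3.72 higher in dZF2 than in dZF1 on the log2 scale, the second largest such difference of 497 genes, and MIXL1 was 2.13 higher, ranking 4. GSC was 1.23 and EOMES 0.98 higher. On this scale 4 of the 5 genes were 2-fold or more higher in dZF2, against 6.44% of the 497, although TBX3 is among the 4 through values of 0 and 0.07. The median absolute difference between the clones over all genes was 0.39 at 24 h and 0.21 at 48 h. At 48 h the 5 genes differed between the clones by -0.32 for GSC to 0.71 for T.

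Within each series the members rose over time in different steps. In WT Rep. 2, on the same scale, 1 of the 5 genes was 2-fold or more above 0 h at 12 h (T), 4 at 24 h and all 5 at 48 h, against 4.02%, 7.65% and 36.4% of the 497 genes. In dZF1 it was 3, 3 and 5 genes, against 5.63%, 22.3% and 47.3%. In dZF2 it was 2, 4 and 5 genes, against 5.84%, 29% and 45.9%. T was not among the 3 in dZF1 at 24 h, where it was 0.42 after 0.46 at 0 h. TBX3 was among the 3 in dZF1 at 12 h through a value of 0.10, and is listed at 0 there at 0 and 24 h.

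On the log2 scale the 24 h level of each of the 5 genes relative to 48 h was nearer in dZF2 to the first WT series than to WT Rep. 2. The 24 h level of T was 191% of the 48 h level in dZF2 and 21.4% in dZF1, next to 215% in the first WT series and 34% in WT Rep. 2. MIXL1 was at 218% in dZF2 and 58.2% in dZF1, next to 355% and 8%. GSC was at 108% and 35.4%, next to 213% and 10%. EOMES was at 57.9% and 37.8%, next to 78.2% and 5%. For EOMES, MIXL1 and GSC the percentage in both clones lay between those of the 2 WT series. For T it did so in dZF2 and lay below both in dZF1. TBX3 was at 1.43% in dZF2 and listed at 0 at 24 h in dZF1.

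**Figure D4:**
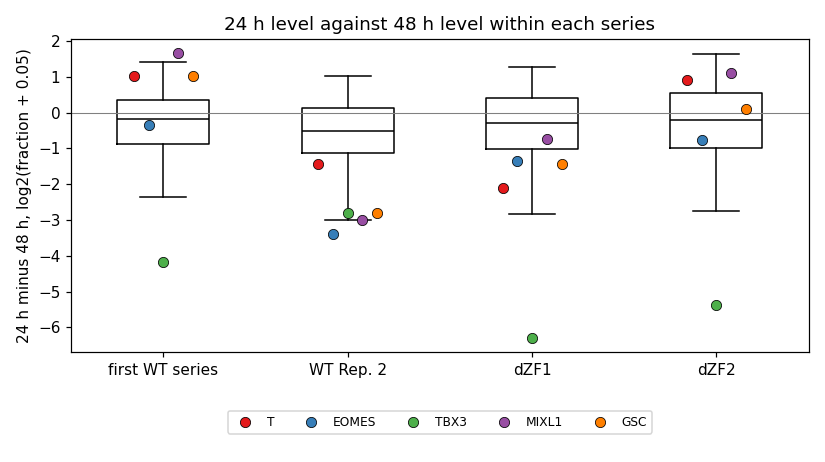
Log2 of the 24 h level minus that of the 48 h level on the log2(fraction + 0.05) scale (vertical axis) in each of the 4 series (horizontal axis), with the 5 genes as coloured points. Boxes show the quartiles and whiskers the 5th and 95th percentiles of all 497 genes. T, MIXL1 and GSC are above 0 in the first WT series and in dZF2 and below 0 in WT Rep. 2 and dZF1.

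On the log2 scale the median of the 5 genes for 24 h against 48 h was 1.01 for the first WT series and -2.81 for WT Rep. 2, and -1.44 for dZF1 and 0.11 for dZF2. Over all 497 genes it was -0.17, -0.51, -0.28 and -0.21. In WT Rep. 2 all 5 genes were 2-fold or more lower at 24 h than at 48 h, against 31.2% of the 497. In dZF1 it was 4 genes, against 25.4%, in dZF2 1 gene (TBX3), against 24.7%, and in the first WT series 1 gene (TBX3), against 21.5%. The clones were scaled with WT Rep. 2 alone, so their levels cannot be set against those of the first WT series.

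Over the 12 libraries of the mutant table, EOMES, MIXL1 and GSC had the most similar profiles. Pearson's r on the log2(value + 0.05) scale was 0.95 for EOMES and MIXL1, 0.95 for MIXL1 and GSC and 0.93 for EOMES and GSC. T was closest to GSC (0.85) and TBX3 was closest to GSC as well (0.66), while T and TBX3 had the lowest value, 0.48. The libraries share lines and times, and most genes of this table rose over the same times, so high values are common.

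The 3 genes of the table most like EOMES were LOC440925 and BDKRB2 (0.98 each) and SP5 (0.97). For MIXL1 they were EPHA2, KIFC3 and SVIL (0.97 each). For GSC they were LEFTY1 (0.98), an inhibitor of NODAL signaling, KCNG1 (0.98) and SERPINE2 (0.97). For T they were LRP8 (0.94), MAML3 (0.88) and DUSP26 (0.88). For TBX3 they were CFLAR and SEMA6D (0.96 each) and SOX17 (0.95), a regulator of definitive endoderm that was also low until 48 h.

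Other regulators of mesendoderm were higher mostly at 48 h. Of 26 such genes 19 are listed in the first WT series, and 3 of the 19 were 2-fold or more higher at 12 h, 7 at 24 h and 14 at 48 h. The shares of all listed genes that were higher were 1.22%, 2.62% and 4.86%. None of the 19 was 2-fold or more lower, against 0.72%, 1.35% and 2.95% of all listed genes. Those of the 19 that were under 4 RPKM at 0 h are likewise listed only through a later rise. The largest changes at 48 h were those of SP5 (listed at 0 at 0 h, 135.7 RPKM at 48 h), SOX17 (listed at 0 and 89.6 RPKM), LHX1 (0.6 and 93.7 RPKM) and GATA6 (listed at 0 and 41.1 RPKM). SP5 was already 49.8 RPKM at 12 h and 90.5 RPKM at 24 h, whereas at 24 h SOX17 was still at 0.6 RPKM and LHX1 at 5.7 RPKM. The median log2 change of the 19 was 0.14, 0.55 and 2.35 at 12, 24 and 48 h, beside -0.01, -0.01 and 0 over all genes. SMAD2, SMAD4 and FOXH1, which act downstream of NODAL, changed by less than 2-fold at each time. FOXH1 was 44.6 RPKM at 0 h and 64.8 RPKM at 48 h. In the clones 8 of these genes have values, and 4 were called higher in both at 24 h and 4 at 48 h, against 10.5% and 6.24% of the 497 genes. SP5, the gene mutated in the clones, is among the 4 at both times. FOXA2, GATA6 and HHEX, also among them at 24 h, were then at 0.51 or less in the clones.

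In the first WT series signals of the primitive streak were mostly higher already at 24 h. Of 17 signals and their inhibitors 14 are listed, and 6 were 2-fold or more higher at 12 h, 10 at 24 h and 9 at 48 h. The shares of all listed genes that were higher were 1.22%, 2.62% and 4.86%. At 12 h 1 of the 14 was lower (FGF4, 1.8 to 0.4 RPKM), against 0.72% of all listed genes. Those of the 14 that were under 4 RPKM at 0 h are also listed only through a later rise. CER1, a secreted inhibitor of NODAL and BMP, was 1.8, 6.7, 466.7 and 634 RPKM. FGF17 was listed at 0 at 0 and 12 h and was 29.3 RPKM at 24 h and 142.3 RPKM at 48 h. NODAL, whose signal acts upstream of EOMES and MIXL1 in the embryo, was 4.3, 77.1, 159.2 and 56.9 RPKM. It was thus highest at 24 h in this series, like MIXL1, GSC and T. In WT Rep. 2 NODAL was 0.32 at 24 h and 1 at 48 h, so it and these 3 genes were highest at 48 h there. DKK1, an inhibitor of WNT, was 0.6, 1.1, 14.3 and 69.5 RPKM. In WT Rep. 2 CER1 was 0.02 at 24 h and FGF17 and DKK1 are listed at 0, each against 1 at 48 h. There FGF4 was 0.52 at 0 h and 0.69 at 24 h. The median log2 change of the 14 in the first WT series was 0.71, 3.19 and 2.83. Of 11 with values in the clones, 7 were called higher in both clones at 24 h and 2 at 48 h, against the same 10.5% and 6.24%. For NODAL the log2 ratios to WT Rep. 2 at 24 h were 2.03 in dZF1 and 3.07 in dZF2.

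The rest of the 2 gene families was mostly not listed. Of 14 other T-box genes 3 are listed. TBX6 went from 1.1 to 4.6 RPKM and TBX10 from 0.7 to 5.5 RPKM between 0 and 48 h, log2 changes of 1.42 and 1.93, and MGA did not reach 2-fold. A gene that is not listed either stayed under 4 RPKM in all 4 libraries or was left out of the table for another reason. Of 36 other paired-class homeobox genes 4 are listed. Among them OTX2 rose from 49.4 to 137.6 RPKM by 48 h. HESX1 fell from 13.6 to 5.6 RPKM by 24 h and PRRX2 from 5.3 to 0.8 RPKM by 48 h.

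Pluripotency genes moved less. Of 11 listed markers 2 were 2-fold or more lower at 48 h, against 2.95% of all listed genes, and none at 12 or 24 h. SOX2 fell to 105.5 RPKM, a log2 change of -1.17, and PRDM14 fell from 31.6 to 11.5 RPKM, a change of -1.38. POU5F1 was 243.1 RPKM at 48 h. Of 5 listed neural markers 2 were lower at 24 and at 48 h, SOX3 (14.2 to 3.7 RPKM by 48 h) and POU3F1 (30.8 to 6.2 RPKM), and 1, OTX2, was higher at 48 h. Among all listed genes 1.35% were lower at 24 h and 2.95% at 48 h, and 4.86% were higher at 48 h.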

How the data were processed

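RNA-Seq libraries of H1 cells and SP5 ChIP-Seq peak lists were analysed as deposited. TopHat (alignment to hg19) and Cuffdiff were what the authors used to obtain RPKM. They deposited RPKM, rounded to 1 decimal, for 10975 genes of the first WT series, each with a highest RPKM of 4 or more. The authors deposited the mutant experiment for 497 genes as a fraction of the highest WT Rep. 2 RPKM (WT Rep. 2) and as a ratio to it (clones). The peak lists deposited by the authors came from MACS 1.4.2. They give per peak its tag count, its score (the p-value on a negative log scale) and its fold enrichment against the control. The authors also deposited the false discovery rate as a percent. The submitters' processing notes also name Bowtie 0.12.7 and SAMtools 0.1.12a. The ChIP library held 18641194 tags.

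Changes were computed on log2(RPKM + 1) or log2(value + 0.05), and 2-fold or more was called. This step was tested on simulated data. With 1 library per series and time, and the WT series in separately scaled tables, no test was run and no interval is given. Start sites were the outermost of each gene in GENCODE release 44 mapped to GRCh37. Motifs were searched within 150 bases of each summit on both strands. GENCODE v44lift37 gave gene positions, and RefSeq windows are on GRCh38.p14.

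The 5 genes, the lists and the alternatives were chosen with earlier results of these data known. Named genes are these 5, the 3 genes most like each, and from each list up to 4 listed genes with the largest changes of 2-fold or more in either direction at 24 or 48 h; FOXH1, SMAD2, SMAD4, MGA, FGF4 and POU5F1 were added after their values were seen. The deposited table of fractions for the first WT series differed from RPKM over its maximum by at most 0.0237 and was not used for levels. Protein sequences were not compared, and 1 gene of the lists is not reported here. Scripts ran in Python 3.11.15, with pandas 2.3.3 on numpy 2.4.6 for the tables and matplotlib 3.10.9 for the plots.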

Additional observations from a re-analysis of the deposited data

Results flagged for a closer look

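Between 24 and 48 h, 3 of the 5 genes moved in opposite directions in the 2 clones. The step from 24 to 48 h of T was 2.10 on the log2(value + 0.05) scale in dZF1 and -0.92 in dZF2, a difference (dZF2 minus dZF1) of -3.02. That of MIXL1 was 0.74 in dZF1 and -1.10 in dZF2, a difference of -1.84. That of GSC was 1.44 in dZF1 and -0.11 in dZF2, a difference of -1.55. Each step compares 1 library with 1 library, so the difference between the clones was not tested.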

How the results depend on the processing

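The number of the 5 genes called in the first WT series was 4, 4 and 5 at 12, 24 and 48 h under the pseudocounts of 0.1 and 5 and with the median of all genes set to 0. The number higher in both clones stayed at 3 at 24 h and 2 at 48 h under each pseudocount, with the median set to 0 and relative to the own 0 h. Leaving out 1 clone gave 3 to 4 at 24 h, 3 at 48 h and 1 to 2 at 0 h, where the main count is 0. At 12 h a pseudocount of 0.2 left 0 in both clones, 0 in WT Rep. 2 and 0 in dZF1, and scaling to the own 0 h left 1 in both clones; a pseudocount of 0.01 gave 2 in WT Rep. 2. At 24 h a pseudocount of 0.2 left 1 in WT Rep. 2. Over the mean of both WT series at 12 h, leaving out 1 series gave 1 to 4. Near-peak counts fell at 50000 bases, to 2 with the buffer control and 1 with the Wnt3a control, and at a false discovery rate of 5% or less to 2 with the buffer control, where GSC was lost; the start of the canonical transcript, an alternative chosen after seeing the data, left them as they were.

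Counts over all genes moved more. At 12, 24 and 48 h in the first WT series they were 34, 119 and 244 with a pseudocount of 5, and 71, 178 and 315 for genes reaching 10 RPKM; at 12 h a pseudocount of 0.1 gave 203. Among the 497, those higher in both clones at 0 h numbered 17 with a pseudocount of 0.01 and 6 with 0.2, at 12 h 5 with 0.2, at 24 h 34 with 0.2, and at 48 h 54 relative to the own 0 h. With 1 clone they numbered 18 to 27 at 0 h, 29 to 33 at 12 h, 60 to 111 at 24 h and 48 to 54 at 48 h. No paired analysis was possible because no result comes from a test; the WT changes were taken within each of the 2 series, and their mean called 3, 4 and 5 of the 5 genes at 12, 24 and 48 h. What limits these values is 1 library per clone and time, 2 WT series scaled in separate tables, an unknown RNA-Seq depth and 2-decimal rounding near 0.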
